A study of Mus musculus with 3 samples.

Results

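Triple-positive cells were endothelial cells (ECs) of the mouse lung within a capillary gate in which at least 1 molecule of Pim3, of Bcl3 and of Tmem252 was counted. A molecule is counted here by its unique molecular identifier (UMI). Barcodes were taken as cells between 1000 and 5000 genes, if mitochondrial transcripts made up less than 20% of their UMIs. They then had at least 2 UMIs of the EC genes Pecam1 and Cdh5 together, at least 3 of the general capillary genes Gpihbp1, Kit, Plvap and Aplnr together, and fewer than 3 of the aerocyte genes Ednrb, Fibin, Tbx2, Chst1 and Apln together. Of 31947 cells that passed the cell filters, 23683 lay within these gates, and 1703 of those were triple-positive. The cells of the same gates with no UMI of any of the 3 genes, called triple-negative cells below, numbered 8401 and were the reference.

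The cells came from 3 libraries of Pecam1+ Ptprc- cells sorted from the lungs of wild-type C57BL/6 mice. In the control library, mice received PBS alone by the tail vein and lungs were taken after 6 h. In the others, 200000 B16-F10 cells, a mouse melanoma line, were injected in 100 µl of PBS and lungs were taken after 6 h or after 30 h. Each library pooled mice, 2 per treatment in the labels but 3 per sample in the study's methods for the experiment with a 30 h library. Melanoma cells were sorted into the 6 h library together with the ECs. No PBS library was taken at 30 h. Each group was therefore 1 library, and differences between libraries carry no test. The libraries held 124085451 to 140601123 UMIs, the members' median depth was 9742 to 10368 UMIs per cell, and 23 to 39 barcodes were shared between any pair of libraries, none of them a triple-positive cell in both.

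Pim3 encodes a serine/threonine kinase of the PIM family, a group that is transcribed on demand and acts on cell survival and translation. Bcl3 is an atypical IκB protein that binds NF-κB p50 and p52 dimers in the nucleus, and Tmem252 encodes a transmembrane protein. PIM and SOCS genes are transcribed downstream of the IL-6 family of cytokines, whose receptors share gp130 and act through JAK kinases and STAT3, and the SOCS proteins in turn restrain that signal. General capillary cells line most of the alveolar capillary bed, aerocytes are the larger cells of gas exchange, and veins, arteries and lymphatics have ECs of their own.

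The sequences just before the start sites of the 3 genes that define the cells are shown because they are what these genes do and do not share at the DNA level. They are the 250 bases before each RefSeq start (GRCm38.p6), read 5′ to 3′ on the strand of the gene, with GC boxes (GGGCGG or its complement) and the TATATAA element in capitals. Both motifs were chosen after the sequences had been seen.
Pim3, chr15:88861944-88862193, plus strand: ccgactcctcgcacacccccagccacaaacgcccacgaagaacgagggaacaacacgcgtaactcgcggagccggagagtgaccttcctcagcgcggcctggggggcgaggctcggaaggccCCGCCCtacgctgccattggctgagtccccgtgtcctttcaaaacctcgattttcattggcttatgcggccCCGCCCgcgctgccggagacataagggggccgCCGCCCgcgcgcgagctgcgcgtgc
Bcl3, chr7:19822756-19823005, minus strand: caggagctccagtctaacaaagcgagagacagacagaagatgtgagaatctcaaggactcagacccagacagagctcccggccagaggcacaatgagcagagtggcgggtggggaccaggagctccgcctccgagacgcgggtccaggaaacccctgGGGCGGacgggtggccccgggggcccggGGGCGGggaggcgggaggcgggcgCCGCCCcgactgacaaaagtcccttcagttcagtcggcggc
Tmem252, chr19:24673758-24674007, plus strand: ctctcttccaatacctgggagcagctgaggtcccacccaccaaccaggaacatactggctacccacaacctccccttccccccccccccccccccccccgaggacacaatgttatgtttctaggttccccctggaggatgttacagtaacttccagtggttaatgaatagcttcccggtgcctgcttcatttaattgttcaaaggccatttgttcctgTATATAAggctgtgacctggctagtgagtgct
Pim3 and Bcl3 had GC-rich windows, with 68.0% and 67.6% G or C, 31 and 19 CpG dinucleotides and 3 GC boxes each. The Tmem252 window was 53.2% G or C, held 2 CpG and no GC box, and had 1 TATATAA element. Over all 32851 RefSeq promoters in the table the median was 52.4% G or C with 6 CpG, 32.7% had a GC box and 3.04% the TATATAA element. Searched on both strands, a STAT element (TTCNNNGAA, in 7.02% of all promoters), an NF-κB element (GGANTTTCC, 1.07%), an AP-1 element (TGANTCA, 6.75%) and a cAMP response element (TGACGTCA, 1.55%) were in none of the 3 windows. These are matches of letters within 250 bases only.

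The cells were chosen by the counts of these 3 genes, so their levels are a description with no test. In counts per 1000000 UMIs (CPM), Pim3 stood at 302 in the control, 403 at 6 h and 299 at 30 h in triple-positive cells, against 108, 161 and 89.3 over all gated cells. Bcl3 stood at 142, 184 and 138 against 27.5, 68.5 and 24.2, and Tmem252 at 378, 553 and 581 against 109, 193 and 143. The RNA of droplets with at most 100 UMIs, which hold no cell, carried Pim3 at 114, 146 and 88.2 CPM, close to the average gated cell, Bcl3 at 17.5, 57.0 and 22.4, and Tmem252 at 83.6, 159 and 98.2. A single UMI of a rule gene can therefore be free RNA. Exactly 1 UMI of each gene was the whole basis of membership in 57 control cells (15.4%), 72 cells at 6 h (7.24%) and 50 at 30 h (14.8%), and the median sum of the 3 genes was 6, 9 and 7 UMIs. Just outside the rule, 1042, 1057 and 841 cells lacked only Bcl3, 413, 729 and 213 only Tmem252, and 203, 393 and 182 only Pim3. Bcl3 was thus the gene most often missing in each library. At the limits of the gates, 0, 6 and 0 members had exactly 3 general capillary UMIs and 34, 66 and 39 had 2 aerocyte UMIs, while 1, 1 and 0 cells with all 3 genes fell out at 2 capillary UMIs and 10, 37 and 9 at 3 aerocyte UMIs.

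The gate genes were required of every cell, so their levels do not test the name capillary. As a description, Gpihbp1, which carries lipoprotein lipase to the capillary lumen, stood at 1415, 1139 and 1054 CPM in triple-positive cells and 1290, 1125 and 983 in triple-negative cells of like depth. Part of the triple-positive cells carried venous RNA. With a venous mark defined as at least 2 UMIs of Slc6a2, Car8 and Bst1 together, 98 of 370 triple-positive cells of the control (26.5%, 95% exact interval 22.1 to 31.3), 145 of 995 at 6 h (14.6%, 12.4 to 16.9) and 94 of 338 at 30 h (27.8%, 23.1 to 32.9) were marked. Among triple-negative cells of like depth 1.89%, 2.13% and 2.07% were. Most marked members lay far above the limit, with 80, 115 and 64 of them at 12 or more of these UMIs. Slc6a2, a noradrenaline transporter that is part of the mark, stood at 1928, 1865 and 1554 CPM in marked members and, by construction of the mark, at 3.31, 3.55 and 3.57 in the others. Vwf, the von Willebrand factor, which neither the mark nor the gates used, stood at 2518, 2230.3 and 2773 against 127, 105 and 89.96. Kit, the stem cell factor receptor and a gate gene, stood at 140, 202 and 197 against 598, 689 and 618. The comparisons of classes below therefore also give values without venous-marked cells where these differ. That step was added after the values had been seen.

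**Figure D1:**
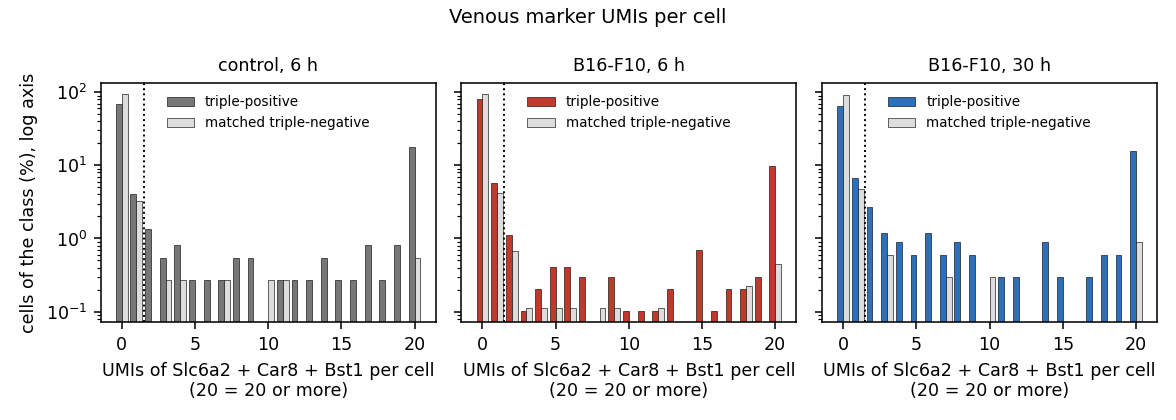
Share of cells (log axis, %) against the UMIs of Slc6a2, Car8 and Bst1 per cell, for triple-positive and matched triple-negative cells of each library, with the last position holding 20 or more UMIs and the dotted line marking the venous mark of at least 2. Triple-positive cells had a second group at high counts that was rare in the reference, and 26.5%, 14.6% and 27.8% of them lay right of the line.

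The triple-positive share of gated cells was 4.26% in the control (exact interval 3.85 to 4.71). It was 11.9% in the 6 h library (11.2 to 12.6), and in the 30 h library it was 5.08% (4.57 to 5.64). A deeper cell has more chances to show all 3 genes, and the members' median of 10133, 9742 and 10368 UMIs lay above the 7481, 7849 and 8348 of all gated cells. Each cell was therefore thinned to 5000 UMIs, which left out 1902, 1531 and 1081 shallower cells. The share was then 131 of 6781 cells (1.93%, 1.62 to 2.29), 440 of 6821 (6.45%, 5.88 to 7.06) and 109 of 5567 (1.96%, 1.61 to 2.36). At this depth the interval of the 6 h library lay above the others, whose intervals overlapped. Thinned to 3000 UMIs the 6 h share was again the highest (2.88%, 2.52 to 3.28). The 30 h share (1.16%, 0.905 to 1.45) then lay above that of the control (0.616%, 0.456 to 0.814), without overlap. These intervals cover counting error only and say nothing of the spread between mice. In the cells thinned to 5000 UMIs each gene alone was found in 33.9%, 40.7% and 28.3% for Pim3, 11.9%, 25.4% and 10.9% for Bcl3 and 26.0%, 34.3% and 29.2% for Tmem252. As a description, the share with all 3 was 1.85, 1.82 and 2.19 times the product of the single shares over all gated cells, 1.90, 1.88 and 1.97 times in cells without the venous mark and 1.26, 1.25 and 1.52 times in cells with it. At 3000 UMIs these were 2.04, 2.36 and 3.93 over all gated cells, 1.81, 2.53 and 3.79 without the mark and 1.51, 1.35 and 2.10 with it.

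The 6 h library was the highest both in cells with and in cells without the venous mark. At 5000 UMIs the share was 1.59%, 5.85% and 1.38% without the mark and 5.41%, 14.3% and 8.04% with it. In the aerocyte gate it was 0.579%, 2.53% and 0.522%, lower than in the general capillary gate of the same library each time. Cells with no Pecam1 or Cdh5 UMI, which carry no sign of endothelium, had all 3 genes, without thinning, in 0 of 123 (which allows a share of up to 2.44%), 1 of 118 and 0 of 94 (up to 3.19%), the limits being those that 3 counts would give. Their median depths of 2761, 4062 and 3426 UMIs were lower, and at 5000 UMIs the share was 0 of 30, 0 of 45 and 0 of 39, with exact upper limits of 11.6%, 7.87% and 9.03% that include the shares of the gated cells.

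**Figure D2:**
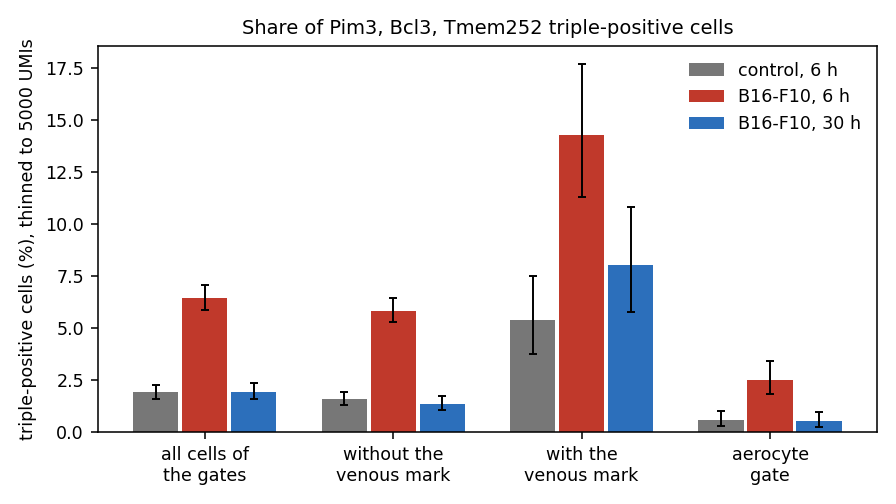
Share of cells (%) with all 3 of Pim3, Bcl3 and Tmem252 after thinning to 5000 UMIs, by library, for the general capillary gate, its parts with and without the venous mark, and the aerocyte gate, as bars with 95% exact intervals for counting error. The 6 h library was highest in every class, and venous-marked cells were higher than unmarked cells in every library.

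To describe what else the cells expressed, 370, 894 and 338 triple-positive cells were paired with triple-negative cells of their own library within 10% of their depth, and UMIs were summed per library and class. The 3 rule genes were left out of the sums. Of 11287 genes tested, 984 were higher in triple-positive cells (8.72%) and 704 lower (6.24%) at an adjusted p of 0.05 (edgeR quasi-likelihood test with library as a block, Benjamini-Hochberg). Without venous-marked cells 690 of 10656 were higher (6.48%) and 441 lower (4.14%). The p-values are not set by each gene's spread between the 3 libraries alone. The edgeR fit borrows information on spread from the other genes, so a p-value can be smaller than the SE of that gene would give. The libraries also differ in treatment, and the fit has 2 residual degrees of freedom. Fits with a library left out have fewer, so their p-values carry less weight. With library totals in place of TMM scaling the split was 884 higher and 968 lower, so the balance of directions over all genes depends on the scaling. Without the library block 107 and 40 were called.

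The largest increase was in Selp, the P-selectin that tethers leukocytes, which stood at 102 CPM in the control, 131 at 6 h and 43.6 at 30 h against 1.04, 0.728 and 1.66 in the reference (log2 difference 6.66 ± 0.82, SE over 3 libraries, adjusted p = 1.02e-08 by edgeR). Vcam1, which holds leukocytes through integrins, stood at 185, 193 and 174 against 12.7, 20.4 and 16.3 (3.48 ± 0.17). Ch25h, which makes the oxysterol that attracts lymphocytes (4.95 ± 0.42), Ptgs2, the inducible cyclooxygenase (4.22 ± 0.16), Pla2g4a, the phospholipase that feeds it (3.54 ± 0.40), Slc6a2 (4.19 ± 0.38), Tmem45a (3.98 ± 0.66) and Lama1, a laminin chain (3.59 ± 0.69), were also among the 12 largest. Without venous-marked cells Lama1 differed by 3.23 (adjusted p = 0.000326 by edgeR). With the 6 h, control or 30 h library left out as well, Lama1 differed by 1.82, 3.16 and 4.71. Over all 3 libraries without venous-marked cells, Selp, Ch25h, Ptgs2, Pla2g4a, Slc6a2 and Tmem45a had too few UMIs to be tested. With pairs matched on the venous mark those genes differed by 3.79, 2.50, 2.24, 1.01, 1.03 and 0.42, and Tmem45a no longer passed (adjusted p = 0.420 by edgeR). This match kept 304, 822 and 280 pairs, against 370, 894 and 338 without it. Marked members could pair only with marked reference cells, which numbered 64, 44 and 42 for 98, 145 and 94 marked members. Part of the marked members therefore dropped out. With pairs matched on the venous mark, Vcam1 differed by 1.40. Without venous-marked cells its difference was 0.60 with an adjusted p of 0.0685. With lymphatic- and arterial-marked cells (defined below) left out as well it was 2.90 (adjusted p = 2.21e-05, both by edgeR). Leaving these cells out changed both classes and their pairing, and the cause of the move was not tested. Selp was found in 1.84%, 3.28% and 2.05% of unmarked members and in 0.735%, 0.757% and 0.410% of the reference. Of the 49 tested vein markers of the study, 46 were higher and none lower (median 1.78), while without venous-marked cells 10 were higher and 11 lower of 39 (median 0.04). Over all genes 8.72% were higher and 6.24% lower, and without venous-marked cells 6.48% and 4.14%. Vwf changed from a log2 difference of 2.00 to −0.28 ± 0.05, Prss23, a secreted protease, from 2.48 to −0.14 (adjusted p = 0.449 by edgeR), and Nr2f2, the transcription factor of venous identity, from 1.78 to −0.24 ± 0.10, the latter with an adjusted p of 0.231 by edgeR. With venous-, lymphatic- and arterial-marked cells all left out, 14 of 34 vein markers were higher and 2 lower (median 0.37), beside 623 and 402 of all 10511 genes. In that setting Vwf and Prss23 differed by 0.085 and 0.071 (adjusted p = 0.582 and 0.756 by edgeR) and Nr2f2 by 0.81 (adjusted p = 0.00183 by edgeR). The direction of Nr2f2 thus turned with the cells left out.

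Other genes passed the test with and without the venous-marked cells. Lrg1 and Ackr3, both named below, are also on the study's vein list. Tmem173, Samsn1, Grrp1, Lalba and Ackr3 are on the study's list of reactive capillary markers, counted below. That list is not independent evidence, since the study chose it on cells that include these. Lrg1, a secreted glycoprotein that modifies TGF-β signalling in vessels, stood at 130, 101 and 115 CPM in unmarked triple-positive cells against 15.9, 16.6 and 10.3 (log2 difference 2.94 ± 0.24, adjusted p = 8.61e-09 by edgeR), and its difference was 3.78 with the venous-marked cells. Tmem173, the STING adaptor of cytosolic DNA sensing, stood at 7.73, 26.3 and 8.72 against 1.11, 3.69 and 0.794 (2.93 ± 0.17). Samsn1, an adaptor protein, stood at 23.9, 45.2 and 22.6 against 3.32, 8.48 and 3.17 (2.59 ± 0.11). Each of these 3 genes passed the test, and 10.6% of all genes did so in either direction. Grrp1, a glycine- and arginine-rich protein, stood at 265, 337 and 249.7 CPM against 88.5, 90.4 and 75.0 (1.79 ± 0.11), and it was detected in 75.4%, 77.3% and 75.4% of unmarked triple-positive cells against 50.7%, 47.7% and 47.1%. Lalba, the milk protein α-lactalbumin, had a large difference of 4.48 but sat in few cells, 2.94%, 5.80% and 6.15% of the unmarked triple-positive cells against 0.368%, 0.504% and 0.410%. Cxcl10, an interferon-induced chemokine, differed by 4.21 before venous-marked cells were left out, and at 30 h 288 of its 368 UMIs came from 1 cell.

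**Figure D3:**
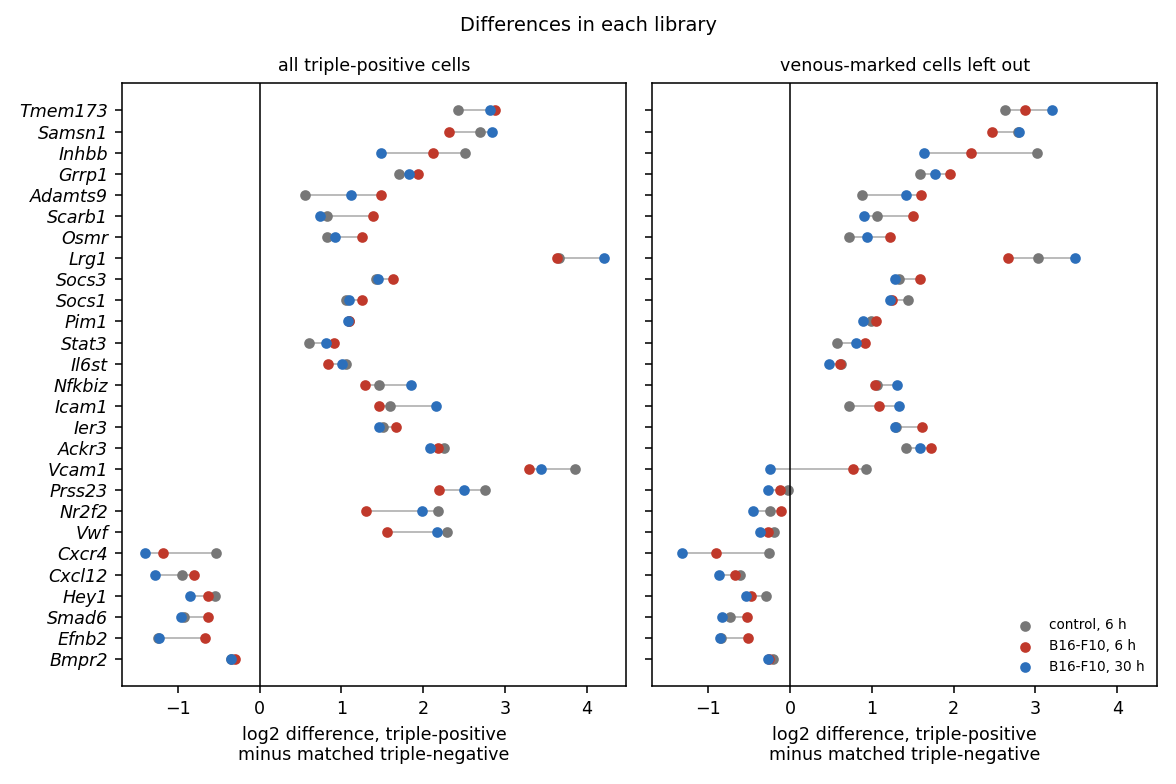
Log2 difference between triple-positive and matched triple-negative cells for single genes (rows), with 1 point per library, for all cells (left) and without venous-marked cells (right). Of the vein markers, Vwf, Prss23 and Nr2f2 had fitted differences of −0.28, −0.14 and −0.24 on the right, and Lrg1, Ackr3 and Vcam1 of 2.94, 1.60 and 0.60. Grrp1, Socs3, Samsn1 and Inhbb stayed above 0 in each library.

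Of 42 tested genes that the study lists as markers of reactive capillary cells, other than the rule genes, 40 were higher and none lower (median 1.01), and without venous-marked cells 40 of 41 were higher (median 1.01). The study chose that list on cells that include these, so it is not independent evidence. Its members included Ackr3, a scavenging receptor for Cxcl12, at 265, 260 and 359 CPM against 55.7, 59.7 and 87.2 (2.17 ± 0.05, and 1.60 without venous-marked cells), Xbp1, a transcription factor of the unfolded protein response (1.09), and Bhlhe40 and Cebpd, transcription factors induced by cytokines and stress (2.16 and 1.42, and 1.61 and 1.26 without). The 4 genes of the study's RT-qPCR panel other than the 3 rule genes were all higher. The study took that panel from its top reactive capillary markers, so it is not independent evidence either. Inhbb, Osmr and Scarb1 are also on the list just counted. Inhbb, the subunit of activin B, stood at 13.8, 66.0 and 24.3 CPM against 2.33, 15.8 and 8.86 (2.02 ± 0.30, adjusted p = 6.02e-06 by edgeR). Osmr, the oncostatin M receptor, stood at 136, 179 and 95.3 against 77.3, 78.4 and 51.5 (1.03 ± 0.13). Adamts9, a secreted protease, stood at 178, 362 and 199 against 122, 135 and 94.7 (1.08 ± 0.27), and Scarb1, the HDL receptor, at 200.0, 256 and 185 against 113, 102 and 114 (1.01 ± 0.20). Triple-positive sums exceeded reference sums in each library for all 4, and Inhbb was higher in members at 6 h than in members of the other libraries.

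Members of the IL-6 pathway were counted by their place in it. Of 13 tested receptors, JAKs and STATs, 5 were higher and none lower (median 0.12), beside 8.72% higher and 6.24% lower over all genes, among them Il6st, the shared gp130 chain, at 394, 373 and 333 CPM against 190, 216 and 171 (0.96 ± 0.06, and 0.57 without venous-marked cells). Stat3 stood at 315, 430 and 224 against 208, 239 and 132 (0.78 ± 0.09, adjusted p = 1.65e-05 by edgeR), while Jak1 and Jak2 differed by 0.33 and 0.45. Without the 6 h library these were 0.19 and 0.14, and Jak2 no longer passed (adjusted p = 0.565 by edgeR, and 0.274 by DESeq2 over all libraries). Of 16 tested STAT3 targets and SOCS genes 14 were higher and none lower (median 1.21), and without venous-marked cells 11 of 13 were higher and 1 lower (median 0.98), beside 6.48% and 4.14% of all genes. The lower one was Fgl2, a prothrombinase that is also a vein marker, with 2.27 before and −2.63 after. Socs3, the inhibitor of gp130 signalling, stood at 944, 1427 and 807 against 354, 481 and 304 (1.50 ± 0.06), Socs1 differed by 1.17 ± 0.06, and Socs2 by 0.87. Pim1 was higher by 1.09, 1.09 and 1.08 in the 3 libraries, and Pim2, at 4.61, 4.30 and 3.04 CPM against 2.85, 3.64 and 1.94, did not pass the test (0.48, adjusted p = 0.323 by edgeR).

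NF-κB genes and immediate early genes showed the same direction. Over all genes 8.72% were higher, and 6.48% without venous-marked cells. Of 13 tested NF-κB subunits and inhibitors 9 were higher (median 0.80), with Nfkb2 (1.11) and Relb (1.09), the pair of the non-canonical arm, and the inhibitors Nfkbia (0.80), Nfkbiz (1.47) and Tnfaip3 (1.25), while Rela differed by 0.23 with an adjusted p of 0.0666 by edgeR. Of 8 tested NF-κB targets 7 were higher (median 1.17), including Icam1, a leukocyte adhesion molecule, at 434, 500 and 221 CPM against 144, 189 and 50.7 (1.69 ± 0.22, and 1.02 without venous-marked cells). All 19 tested immediate early genes were higher (median 1.10), with Fos at 1.29, Junb at 1.37 and Jun at 0.51. None of these 3 lists had a lower member, and without venous-marked cells 8 of 12, 4 of 7 and 16 of 18 were higher (medians 0.60, 0.60 and 0.91). Immediate early transcripts also rise while tissue is dissociated, and their summed level was 16264, 21257 and 12656 CPM against 8261, 10142 and 6889 in the reference. The part of dissociation in these differences was not tested.

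When the reference was matched on the level of immediate early and heat shock genes as well as depth, several of these medians fell to under 0.4 and others did not. Only 326 of 370, 665 of 995 and 305 of 338 triple-positive cells found a partner, so the members compared changed too. At 6 h the median depths of the paired classes were 8743 and 8402 UMIs. Over all 11001 genes 594 were higher and 407 lower with this match. Of the reactive capillary list 40 of 41 were higher (median 0.84), Inhbb differed by 1.94, Grrp1 by 1.68 and Osmr by 0.92. Of the STAT3 target list 10 of 15 were higher (median 0.38), with Socs3 at 0.38 (adjusted p = 8.76e-05 by edgeR) and Socs1 at −0.05 (adjusted p = 0.904 by edgeR). Of NF-κB subunits and inhibitors 4 of 13 (median 0.24) and of NF-κB targets 4 of 8 (median 0.35) were higher, with Icam1 still at 0.88 and Nfkbiz at 0.22 (adjusted p = 0.111 by edgeR). Without venous-marked cells and with the same matching, 349 genes were higher and 257 lower. Beside these, 41 of 41 reactive capillary genes, 8 of 12 STAT3 targets and 4 of 12 NF-κB subunits and inhibitors were higher. Of 7 NF-κB targets 2 were higher (median 0.16), with Icam1 at 0.43. The match was made on immediate early and heat shock genes, so their own counts, 5 higher and 5 lower (median −0.09) and 2 higher (median 0.11), follow by construction. Junb of the STAT3 target list and Ier3 of the NF-κB target list are among the matched genes. Their differences of 0.24 and 0.49 with this match, against 1.37 and 1.55 before, are therefore also built in.

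**Figure D4:**
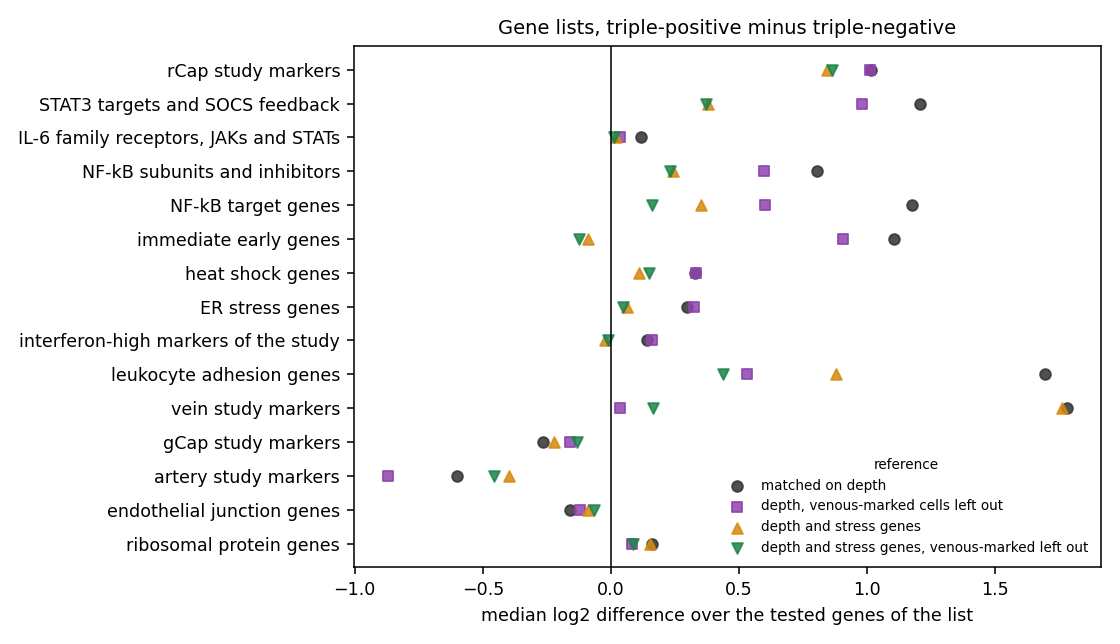
Median log2 difference between triple-positive and triple-negative cells over the tested genes of each list, with the reference matched on depth, matched on depth without venous-marked cells, and matched also on stress genes. The reactive capillary list lay between 0.84 and 1.01, the vein list stood at 0.04 without venous-marked cells, and the STAT3, NF-κB and immediate early lists fell when stress genes were matched.

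The counts of the other lists are to be read beside the 8.72% higher and 6.24% lower over all genes. Of 5 tested leukocyte adhesion genes 4 were higher (median 1.69), and without venous-marked cells 2 of 4 (median 0.53). Of 16 tested heat shock genes 10 were higher (median 0.33). Of 14 endoplasmic reticulum stress genes 4 were higher (median 0.30), of 50 interferon-high markers of the study 17 were higher and 2 lower (median 0.14), and without venous-marked cells 5 of 13 endoplasmic reticulum stress genes were higher and 13 of the 50 interferon-high markers higher and none lower. Of 14 glycolysis genes 1 was higher, Ldha (0.93), a share near that of all genes. Of 20 angiogenic genes 7 were higher and 4 lower (median 0.11). Vegfa, the vascular growth factor, stood at 196, 499.6 and 283 CPM against 281.5, 425 and 401 and did not pass (−0.21, adjusted p = 0.306 by edgeR). Without the 6 h library Vegfa differed by −0.50, in a fit on the control and 30 h libraries alone. Cxcr4, the signalling receptor for Cxcl12, differed by −1.04 and Dll4, a Notch ligand, by −0.58, opposite in direction to Ackr3, and without venous-marked cells Dll4 did not pass (−0.29, adjusted p = 0.0728 by edgeR), nor without the 30 h library (−0.43). Of 18 activin, BMP and TGF-β genes 6 were higher and 3 lower (median 0.05), with Smad6, a BMP-induced inhibitor, at −0.84 and the receptor Bmpr2 at −0.34, and without venous-marked cells 3 were higher and 3 lower. Of 15 junction genes 2 were higher and 6 lower (median −0.16), and without venous-marked cells 1 and 1. None of 13 mitochondrial genes differed, and no cell cycle gene had enough UMIs to be tested. The remaining lists were 2 of 7 cytokines higher and 3 lower, 5 of 12 glucocorticoid-induced genes higher and 1 lower, and 2 of 7 class II genes higher. Of 5 shear-stress genes 4 were higher (2 without venous-marked cells), and of 80 ribosomal genes 35 (median 0.16, with 1 higher without venous-marked cells). With immediate early and heat shock genes matched as above, 594 of 11001 genes were higher and 407 lower. Of 5 shear-stress genes 0 were then higher and 1 lower (median −0.03), and of 50 interferon-high markers 8 and 2 (median −0.02). Of 14 endoplasmic reticulum stress genes 4 were higher (median 0.06). Leukocyte adhesion, angiogenic and ribosomal genes had 4 of 5, 8 of 19 and 33 of 80 higher, and 1, 3 and 0 lower.

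More markers of general capillaries and of arteries were lower than higher. The study chose these lists, like its vein, aerocyte and interferon-high lists, by comparing clusters of cells that include these. The counts are therefore not independent evidence. Over all genes 8.72% were higher and 6.24% lower, and without venous-marked cells 6.48% and 4.14%. Without venous-, lymphatic- and arterial-marked cells 623 of 10511 genes were higher and 402 lower. Of 47 tested general capillary markers of the study 25 were lower and none higher (median −0.27), and without venous-marked cells 18 were lower and 3 higher (median −0.16). Cxcl12, the chemokine that retains leukocytes and guides arterial ECs, stood at 210, 253 and 687 CPM against 408, 457 and 1720 (−1.01 ± 0.14), and Hey1, a Notch target, and Sema3g, a semaphorin, differed by −0.67 and −0.89. Lpl, lipoprotein lipase, differed by −0.47, by −0.18 with an adjusted p of 0.168 by edgeR without venous-marked cells, and by −0.34, not past the threshold, without the 30 h library. Of 21 artery markers 12 were lower and 2 higher (median −0.60), and without venous-marked cells 16 and 1 (median −0.87), with Efnb2, an arterial ephrin, at −1.04 and Atp13a3 at −1.84. With venous-, lymphatic- and arterial-marked cells left out, 9 of 20 were lower and 1 higher (median −0.48), Efnb2 stood at −0.72, and Atp13a3, a gene of the arterial mark, at −0.25 (adjusted p = 0.758 by edgeR). Cxcl12 was lower in triple-positive cells within each library, while across libraries the classes overlapped, since triple-positive cells at 30 h lay above the reference of the control.

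Several of the largest decreases were in lymphatic genes, and those rest on few cells of the reference. Ccl21a, the lymphatic chemokine, differed by −4.30 ± 1.43, Reln by −3.66 and Prox1, the lymphatic master regulator, by −2.16, and 6 of 7 lymphatic markers were lower. Of the remaining largest decreases Maf, a transcription factor of lymphatic valves, differed by −3.17 ± 0.36 and Mmrn1, another lymphatic marker, by −3.08 ± 0.88. The oestrogen receptor Esr2 differed by −3.06 ± 0.65, Lcn2, an iron-carrying lipocalin, by −2.21 ± 0.67, and Adamtsl1, Flrt2 and Cacnb2 by −2.12, −1.83 and −1.75. Without the 6 h library Flrt2 stood at −0.88 and no longer passed (adjusted p = 0.0725 by edgeR), while Ccl21a, Reln and Mmrn1 stood at −6.91, −6.34 and −4.76. With immediate early and heat shock genes matched, Lcn2 stood at −0.41 and Prox1 at −1.08, and Maf, Mmrn1 and Esr2 at −2.07, −2.16 and −2.26. Thinned to 5000 UMIs, Prox1 stood at −1.31 and Adamtsl1 at −1.01, and Adamtsl1 no longer passed (adjusted p = 0.287 by edgeR). Cells with at least 5 UMIs of Ccl21a, Prox1, Mmrn1 and Reln numbered 0, 2 and 0 among triple-positive cells and 6, 10 and 4 among their matched reference. Cells with at least 5 UMIs of the arterial genes Bmx, Atp13a3, Gja5 and Thsd7a were 3.78%, 2.61% and 2.37% of triple-positive cells and 5.68%, 6.82% and 6.51% of the reference. With venous-, lymphatic- and arterial-marked cells all left out, 623 of 10511 genes were higher and 402 lower. In that setting 2 lymphatic markers could be tested, of which 1 was higher and none lower. Maf, Mmrn1, Esr2, Lcn2, Adamtsl1 and Flrt2 then had too few UMIs to be tested, and Cacnb2 differed by −1.59. Of red cell, epithelial, leukocyte and melanoma genes, only the red cell sum at 6 h and the leukocyte sum at 30 h were higher in triple-positive cells, and at 6 h 1 member held 61.0% of the Hba-a2 UMIs, 1 held 58.5% of those of Hbb-bs and 1 held 78.1% of those of Hbb-bt among all members. Summed red cell genes stood at 787, 2848 and 117 CPM against 14930, 2394 and 128, epithelial genes at 388, 506 and 112 against 1400, 1397 and 118, leukocyte genes at 41.7, 61.7 and 46.4 against 138, 91.7 and 46.0, and melanoma genes at 18.7, 30.5 and 10.8 against 25.1, 39.9 and 17.2. None of the 5 red cell, 6 epithelial, 7 pericyte and smooth muscle or 1 melanoma genes tested passed, and 1 of 8 platelet, 1 of 3 leukocyte and 1 of 5 fibroblast genes was lower, as were 4 of 24 aerocyte markers. Over all genes 6.24% were lower. Without cells holding 2 or more UMIs of platelet, leukocyte, fibroblast, pericyte and smooth muscle markers, 938 of 10596 genes were higher and 698 lower. The part of red cell, epithelial, melanoma and aerocyte genes in the differences was not tested. A doublet caller marked 9.73%, 9.45% and 7.40% of triple-positive cells. Of all triple-negative cells, not matched in depth, it marked 6.15%, 5.39% and 6.05%. The median depth of these triple-negative cells was 6215, 6563 and 7215 UMIs, below that of the members. The part of depth in the doublet rates was not tested. Without the marked cells 942 genes were higher and 710 lower.

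Some genes were also higher in cells with only 1 or 2 of the rule genes. In unmarked cells thinned to 5000 UMIs, Socs3 in the control stood at 469, 704, 894 and 1074 CPM in cells with 0, 1, 2 and 3 of the rule genes, at 625, 1018, 1331 and 1670 at 6 h, and at 325, 537, 731 and 823 at 30 h. Grrp1 stood at 103, 125, 190 and 339 in the control, 116, 154, 266 and 399 at 6 h, and 93.4, 128, 183 and 317 at 30 h. Both were higher with each added gene in each library. Inhbb stood at 17.3, 28.0, 49.5 and 80.0 at 6 h, and in the control and at 30 h its values of 4.44, 5.54 and 5.93 and of 7.2, 7.03 and 13.8 in cells with 0 to 2 genes were followed by 24.5 (12.7 to 42.8) and 54.3 (32.7 to 84.8) in cells with all 3. Cxcl12 was lower, with 411 and 229 CPM in the control, 431 and 292 at 6 h and 1513 and 586 at 30 h, between cells with none and cells with all 3 genes. Gpihbp1, a gate gene, stood at 1443 and 1659, 1238 and 1293, and 1143 and 1274 CPM. Cells with more rule genes by chance of capture and cells with higher levels of them cannot be told apart in these counts.

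**Figure D5:**
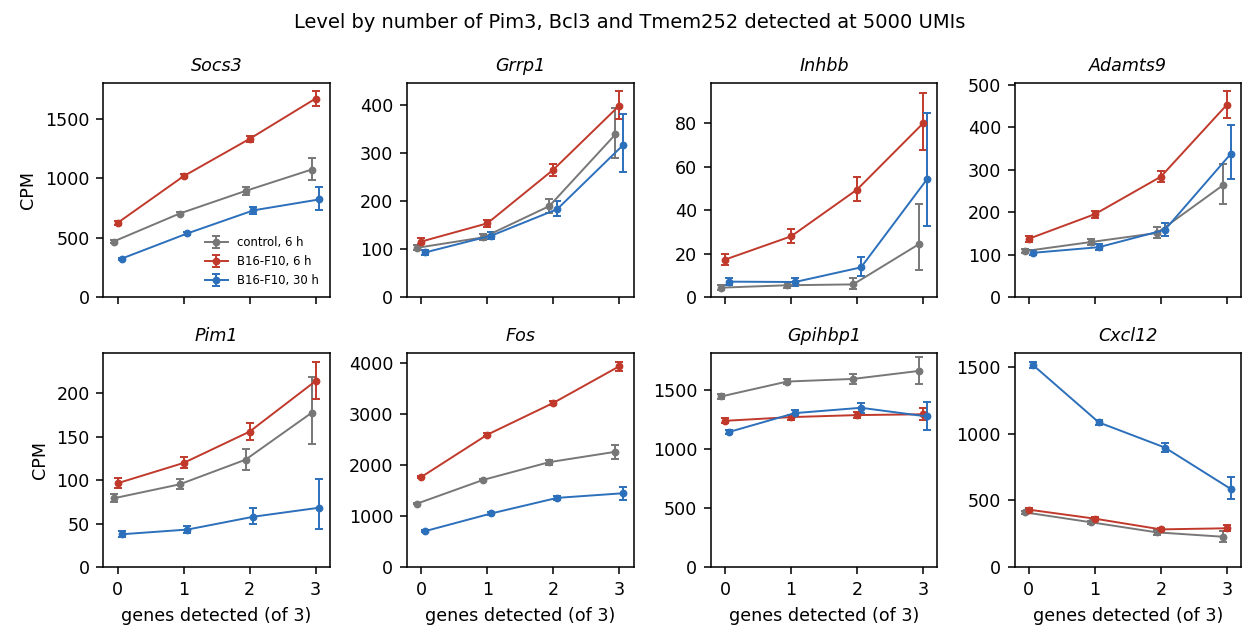
Level in CPM, with 95% Poisson intervals for counting error, of single genes in unmarked cells thinned to 5000 UMIs, against the number of Pim3, Bcl3 and Tmem252 detected (0 to 3), 1 line per library. Socs3 and Grrp1 were higher at every step in each library, Cxcl12 was lower with 3 than with 0, and Gpihbp1 stayed within a narrow range.

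Between libraries, triple-positive cells of the 6 h library differed from those of the control by over 2-fold, on the log2(CPM + 1) scale, in 125 genes upward (1.17%) and 128 downward (1.20%) of 10646 with at least 50 UMIs, and those of the 30 h library in 136 (1.41%) and 148 (1.54%) of 9614. Without venous-marked cells the counts were 152 (1.50%) and 84 (0.829%) of 10138 at 6 h and 124 (1.41%) and 155 (1.77%) of 8764 at 30 h. With 1 library per group these are sizes and not tests. The genes named next are given over all triple-positive cells, of which 26.5% were venous-marked in the control and 14.6% at 6 h. The part of that shift in their differences was not tested. At 6 h the largest difference upward was in Sele, the E-selectin of activated ECs, with 0.256 CPM in the control and 20.2 at 6 h (log2 4.08), carried by 25 members. Csf2, the granulocyte and macrophage growth factor, stood at 0 and 12.2 CPM, with 62.9% of its UMIs in 1 of the 18 members that had any. Hspa1b, an inducible heat shock protein, stood at 18.2 and 135 CPM (2.83, interval 2.55 to 3.26, counting error only), against 2.65 in the reference cells of the same libraries, and Myc, Ak8, Noct and Adamts4 differed by 2.36, 2.25, 2.20 and 2.18. Ccl21a differed by 2.51, with 52.5% of its UMIs in 1 cell. The largest differences downward were in Sntg1 (−2.30, 59.5% of the control UMIs in 1 cell), Klhl3 (−2.08), Stc1 (−1.94), Nav2 (−1.87), Flvcr2 (−1.86), Depp1 (−1.85), the interferon gene Rsad2 (−1.81, 55.4% of the control UMIs in 1 cell) and the club cell gene Scgb1a1 (−1.78).

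At 30 h the largest differences upward in triple-positive cells were in Cxcl9 (4.30, 102 of 104 UMIs in 1 cell), Col18a1, the source of endostatin (3.04), Cxcl10 (2.98, mostly 1 cell as above) and Cmss1 and Cdk8 (2.54 and 2.42, with 2.66 and 2.58 in the reference). Gm35533, 4930545L23Rik and Lalba followed at 2.37, 2.24 and 2.19, with 76.2%, 6.82% and 51.4% of their UMIs in 1 cell. The largest downward were in Ank3 (−3.59), where 28 of the 56 control UMIs came from 1 of 6 cells with any, and in the red cell genes Hbb-bt (−3.11), Hbb-bs (−3.05) and Hba-a2 (−2.68), followed by Scgb1a1 (−2.66), Gm12703 (−2.60), Rsad2 (−2.11) and Nqo1 (−2.08, with −2.68 in the reference), beside the summed red cell level of 787 CPM in the control and 117 at 30 h given above.

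The lists were then compared between the 6 h and control libraries within unmarked triple-positive cells and within the reference cells, with no test. Over all 10138 genes 4763 were higher at 6 h in unmarked triple-positive cells (median −0.02). Of 42 reactive capillary genes with enough UMIs 41 were higher in these cells (median 0.57), and over the 41 with enough UMIs in triple-negative cells the median was 0.23. The study chose this list on data that include these libraries and reports its markers as higher at 6 h. The count is therefore not independent evidence. For 16 heat shock genes the medians were 1.15 and 0.85, for 20 immediate early genes 0.60 and 0.36, and for STAT3 targets 0.54 over 14 genes and 0.40 over 16. For glucocorticoid-induced genes the medians were −0.71 and −0.68, which does not make every member lower. The interferon-high list had 16 of 50 genes higher in unmarked triple-positive cells (median −0.09), 23 of 50 over all triple-positive cells (median −0.03) and 43 of 50 in the reference (median 0.21), where 6263 of all 12144 genes were higher. At 30 h the reactive capillary list was back near the control in triple-positive cells (−0.05), immediate early genes stood at −0.32 and endoplasmic reticulum stress genes at 0.59, with −0.02, −0.46 and 0.40 in the reference. Both comparisons share the control library.

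Not all single genes followed the order of the lists. In unmarked triple-positive cells Inhbb was higher by 1.90 at 6 h (interval 1.55 to 2.39) and 0.70 at 30 h, against 1.70 and 0.55 in the reference, and Adamts9 by 0.90 and 0.20 against 0.24 and −0.19. Vegfa differed by 1.12 and 0.40 against 0.70 and 0.45, and Socs3 by 0.60 and −0.30 against 0.39 and −0.54. Icam1 and Pim1 were above the control at 6 h by 0.55 and 0.32, and below it at 30 h by −1.05 and −1.08, with 0.41 and 0.28 and −1.28 and −1.10 in the reference. Cxcl12 stayed level at 6 h (−0.04 and 0.07) and was higher at 30 h in both classes (1.61 and 1.89). The differences of both classes had the same sign for each of these genes at 6 h, other than Cxcl12, and the difference between classes was not tested.

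Cells with at least 1 UMI of both Csf2 and Inhbb numbered 0, 48 and 1 within the gates. At 6 h 11 of the 48 were also triple-positive, which is 22.9% of the former and 1.11% of the latter, beside 11.9% triple-positive among all gated cells of that library.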

How the data were processed

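Single-cell RNA sequencing was performed on droplet libraries of sorted lung cells, 1 library per group. The deposited matrices hold raw UMI counts per gene and barcode, made by the authors with Cell Ranger (7.2.0 per the file headers and processing notes) against mm10, and empty droplets were not removed. Whether intronic reads were counted is not given in the sources used here. The capillary gates, the 3 rule genes, the gene lists and the tests were chosen with earlier results of these data known.

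Members were paired with triple-negative cells of their library within 10% of their depth without the rule genes. UMI counts were summed per library and class and tested with edgeR 4.0.16 (TMM, filterByExpr with a minimum count of 10, quasi-likelihood F test, library plus class, Benjamini-Hochberg). SE is the SD of the 3 per-library log2 differences divided by the square root of their number. DESeq2 1.42.0 was an alternative. Doublets were called with Scrublet in scanpy 1.11.5 and kept. Shares carry exact binomial and levels exact Poisson 95% intervals. UMIs of free RNA were not subtracted. Text names the 12 largest called differences in each direction of at least 10 CPM, the 8 largest between libraries, and genes of the 33 lists, of which some were picked after their values were seen. Stress matching paired cells also within 20% of their summed immediate early and heat shock UMIs.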

Additional observations from a re-analysis of the deposited data

Results flagged for a closer look

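In the aerocyte gate, which holds cells outside the capillary gates and outside the tests above, 7.91% of 1807 cells of the 6 h library had at least 1 UMI of each of Pim3, Bcl3 and Tmem252 before thinning, above the 2.19% of 2142 control cells and the 2.39% of 2176 cells at 30 h. It drew attention as a signal in cells that enter no comparison of classes. At 5000 UMIs per cell the shares were 2.53%, 0.579% and 0.522%.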

How the results depend on the processing

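The main counts of 984 higher and 704 lower became 1352 and 880 with all triple-negative cells unmatched, and were lower with DESeq2 (513 and 283), without the library block (107 and 40), with the stress match (594 and 407), with a match on the venous mark (649 and 423), and without venous-marked cells (690 and 441), these with the stress match (349 and 257), venous-, lymphatic- and arterial-marked cells (623 and 402) or cells with 3 or more UMIs of 9 vein genes (557 and 336). Thinning gave 736 and 484. Leaving out each library gave 651 to 893 higher and 400 to 687 lower, the lowest without the 30 h library, and without venous-marked cells 447 to 547 and 339 to 360. The cause of each was not tested. No paired analysis by replicate number was possible because each group is 1 library.

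The shares moved with depth, to 4.26%, 11.9% and 5.08% without thinning and 0.616%, 2.88% and 1.16% at 3000 UMIs, and to 1.59%, 5.85% and 1.38% without venous-marked cells (1.46% at 30 h without the vein gene cells). The counts past 2-fold at 6 h became 36 and 29 with 10 CPM added, 197 higher without the vein gene cells, 193 lower at a minimum of 20 UMIs and 84 lower without venous-marked cells. At 30 h they became 230 and 234 at 20 UMIs and 41 and 42 with 10 CPM added.

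Among the 88 genes with a tested class difference that were followed, DESeq2 left 85 on their side of the threshold and the fit without a block 45. The stress match turned Pim2 to −0.086, Socs1 to −0.048, Fos to −0.11 and Jun to −0.25, and with venous-marked cells left out as well Socs1 stood at −0.014, Fos at −0.14, Jun at −0.25, Vwf at −0.084, Prss23 at −0.046 and Vegfa at 0.060. Leaving out venous-marked cells turned Fgl2 to −2.63, Vwf to −0.28, Prss23 to −0.14, Nr2f2 to −0.24 and Vegfa to 0.046, and leaving out the vein gene cells Prss23 to −0.23, Nr2f2 to −0.11 and Vegfa to 0.062. Vegfa stood at 0.11 when thinned, at 0.021 without venous-, lymphatic- and arterial-marked cells and at 0.019 matched on the venous mark. With each library left out in turn, alone or with venous-marked cells, Vegfa ranged from −0.50 to 0.15, Fgl2 from −3.03 to 2.83, Vwf from −0.31 to 2.22, Prss23 from −0.19 to 2.62 and Nr2f2 from −0.37 to 2.07.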
